A study of Mus musculus with 2 samples.

Results

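Ins1, Ins2 and Iapp are the 3 genes whose transcripts encode the peptides that islet β cells release together. They were picked by symbol from the 27998 genes counted in the series, and their unique molecular identifiers (UMIs, 1 per captured RNA molecule) were read from single cells of both libraries. The study asked how loss of ghrelin, a hormone made mainly in the stomach, alters pancreatic islets. Islet cells of 8-week-old C57BL/6N mice were dispersed, sorted as live single cells and sequenced in 1 library per genotype, WT and ghrelin knockout (GKO) littermates, with the islets of 4 mice pooled in each. The ghrelin gene is deleted in the germline of GKO mice, and the pooled animals of a library could not be told apart. With 1 library per genotype there is no replicate of either, so no difference between the genotypes was tested. Values are given for both libraries, some of them with exact 95% intervals that cover counting error only. Intervals for shares of cells treat the cells of 1 pool as independent draws, and they do not cover differences between mice.

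Mice carry a pair of insulin genes. Ins2 has the ancestral structure with an intron inside the coding sequence, and Ins1 is a retroposed copy that lacks it. Both encode preproinsulin, which is folded and oxidized in the endoplasmic reticulum, cleaved by prohormone convertases and stored with zinc in dense-core granules. Iapp encodes amylin, a small amidated peptide that is packed into the same granules and slows gastric emptying and food intake. Amylin is also known from some somatostatin (δ) cells in rodents.

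In mm10 coordinates (GENCODE vM21 gene models), Ins1 (ENSMUSG00000035804) lies on the plus strand of chr19:52264297-52265476. Iapp (ENSMUSG00000041681) lies on the plus strand of chr6:142298423-142303961. Ins2 (ENSMUSG00000000215) lies on the minus strand, and its principal transcript covers chr7:142678659-142679726. The annotated span of the whole gene is longer, chr7:142678656-142743381. The principal transcripts hold 2 exons and 327 coding bases for Ins1, 3 exons and 333 coding bases for Ins2, and 3 exons and 282 coding bases for Iapp.

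The coding sequences of Ins1 and Ins2 are similar enough for their separation to matter, and their last 90 bases, up to and including the stop codon, are shown for that reason (GENCODE transcripts, 5′ to 3′, with the 4 bases that differ in capitals).
Ins1: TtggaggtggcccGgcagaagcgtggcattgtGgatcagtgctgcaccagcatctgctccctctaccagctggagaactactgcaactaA
Ins2: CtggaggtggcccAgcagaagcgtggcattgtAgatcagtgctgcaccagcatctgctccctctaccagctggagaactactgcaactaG
Over the whole coding sequence 302 of 333 aligned positions (90.7%) were identical. The longest run of bases shared by the principal transcripts was 56, and after the stop codon it was 22. With the 90-base reads of this study no read-length window of Ins1 (973 windows) was identical to any of Ins2 (389 windows). How the authors' counting treated reads that fit both genes less than perfectly was not tested. The kit counts 1 UMI per molecule near the 3′ end whatever the length of the transcript, and levels of Ins1, Ins2 and Iapp are set side by side on that scale. Equal capture and counting of the 3 was not tested. After the stop codon the Ins1 transcript has 526 bases and that of Ins2 has 54, and whether reads near the 3′ end of Ins2 were harder to place for that reason was not tested.

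The 250 bases before the start of transcription are shown for the members that RefSeq lists in its GRCm38.p6 table. The reason is that the 3 genes were correlated over insulin-rich cells as shares of UMIs without the members (given with the likeness values later). Whether the promoters bear on that correlation was not tested. Capitals mark TAAT, the core bound by homeodomain factors such as Pdx1 and Nkx6-1, and CATCTG, an E-box of the kind bound by Neurod1 with its partners, on either strand.
Ins1, chr19:52264047-52264296, plus strand: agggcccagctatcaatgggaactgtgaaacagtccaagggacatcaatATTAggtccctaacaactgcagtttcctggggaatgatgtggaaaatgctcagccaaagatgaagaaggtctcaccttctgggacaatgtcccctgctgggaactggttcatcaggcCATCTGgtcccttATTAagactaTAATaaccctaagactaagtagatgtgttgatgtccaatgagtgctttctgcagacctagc
Iapp, chr6:142298175-142298424, plus strand: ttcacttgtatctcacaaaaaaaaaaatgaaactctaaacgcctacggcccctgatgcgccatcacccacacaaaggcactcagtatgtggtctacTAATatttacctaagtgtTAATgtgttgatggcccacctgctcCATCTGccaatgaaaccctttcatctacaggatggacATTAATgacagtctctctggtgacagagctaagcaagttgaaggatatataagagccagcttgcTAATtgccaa
The Ins1 window held 3 TAAT matches and 1 CATCTG, which starts 84 bases before transcription. The Iapp window held 5 TAAT matches, of which 2 overlap in ATTAAT, and 1 CATCTG that starts 111 bases before transcription. TAAT was present in 54.9% of the 32851 listed windows of this length, CATCTG in 14.4%, and both together in 8.91%. Ins2 is named only.

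Insulin transcripts dominated both libraries. Of 158067110 UMIs in the WT library, Ins2 held 24.4%, Ins1 9.55% and Iapp 2.68%. Of 103511757 UMIs in the GKO library, Ins2 held 13.7%, Ins1 5.17% and Iapp 1.83%. Ins2 was the most abundant transcript in both, Ins1 ranked 2 in WT and 4 in GKO, and Iapp ranked 5 and 7. Such library totals mix the number of insulin-rich cells with the RNA in each. After cells under 500 genes or over 10% mitochondrial UMIs were dropped, 2212 of 7100 (31.2%) were insulin-rich in WT and 835 of 6346 (13.2%) in GKO. In tissue sections, from juvenile and adult mice of other ages than these, the paper found a larger β cell area per islet in GKO. That is the opposite order, though an area per islet is not a share of sorted cells. The paper also counted fewer β cells from GKO than from WT in its single-cell data, against its expectation. It proposes that GKO β cells may have been more fragile in handling, which was not tested here. Ghrl itself had 43634 UMIs in the WT and 280 in the GKO library. The libraries shared 18 cell barcodes, of which 9 were insulin-rich in 1 library and 0 in both.

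Cells were called insulin-rich where Ins1 and Ins2 together were at least 25% of UMIs, and Sst-led, Gcg-led or Ppy-led where that hormone was the leading hormone and at least 10% of UMIs. The cells without any hormone at 10% that carried at least 3 markers of 1 other cell type (1347 WT and 1967 GKO) served as the level of free RNA. The 25% limit lay in a sparse range, with 19 WT cells from 20 to 25% and 44 from 25 to 30%, and 19 and 21 cells in GKO. The β markers that the limit did not use were present in the insulin-rich cells. Ucn3, the urocortin of mature β cells, was detected in 86.8% of WT and 86.4% of GKO cells, G6pc2, an islet glucose-6-phosphatase, in 97.7% and 96.9%, Slc2a2, the glucose transporter, in 94.5% and 94.6%, and Nkx6-1 in 92.7% and 93.5%. Mafa, a late activator of the insulin genes, was detected in only 7.87% and 13.9%. When cells were instead chosen by at least 3 of these 5 markers and no Sst, Gcg or Ppy at 10%, with no use of insulin, 2021 of 2045 WT cells (98.8%) and 762 of 780 GKO cells (97.7%) turned out insulin-rich. In that choice the median insulin share was 62.9% of UMIs in WT and 61.4% in GKO.

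The Sst-led cells (1414 WT, 1003 GKO) carried the δ markers Hhex in 80.6% and 81.5% of cells and the ghrelin receptor Ghsr in 23.6% and 27.1%, beside 12.3% and 13.1% for Hhex and 2.40% and 4.07% for Ghsr in insulin-rich cells. Rbp4, detected in most cells of every hormone class, stood at 5428 and 6276 CPM (UMIs per 1000000 UMIs) in Sst-led and 267 and 328 in insulin-rich cells. Edn3, also on the δ list, went the other way. It was detected in 4.4% and 2.4% of Sst-led cells and in 44.6% and 49.9% of Gcg-led cells. The Gcg-led cells (1048 WT, 1397 GKO) had Slc7a2, an amino acid transporter gene of α cells, at 456 and 481 CPM, beside 68.4 and 61.7 in insulin-rich cells. The Ppy-led cells (717 WT, 669 GKO) had Pyy at 118457 and 117846 CPM, beside 53272 and 48774 in Sst-led and 21153 and 18482 in Gcg-led cells. Since Pyy was detected in nearly all cells of each hormone class, its detection alone marks none of them. No cell was counted in more than 1 of the 4 classes.

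**Figure D1:**
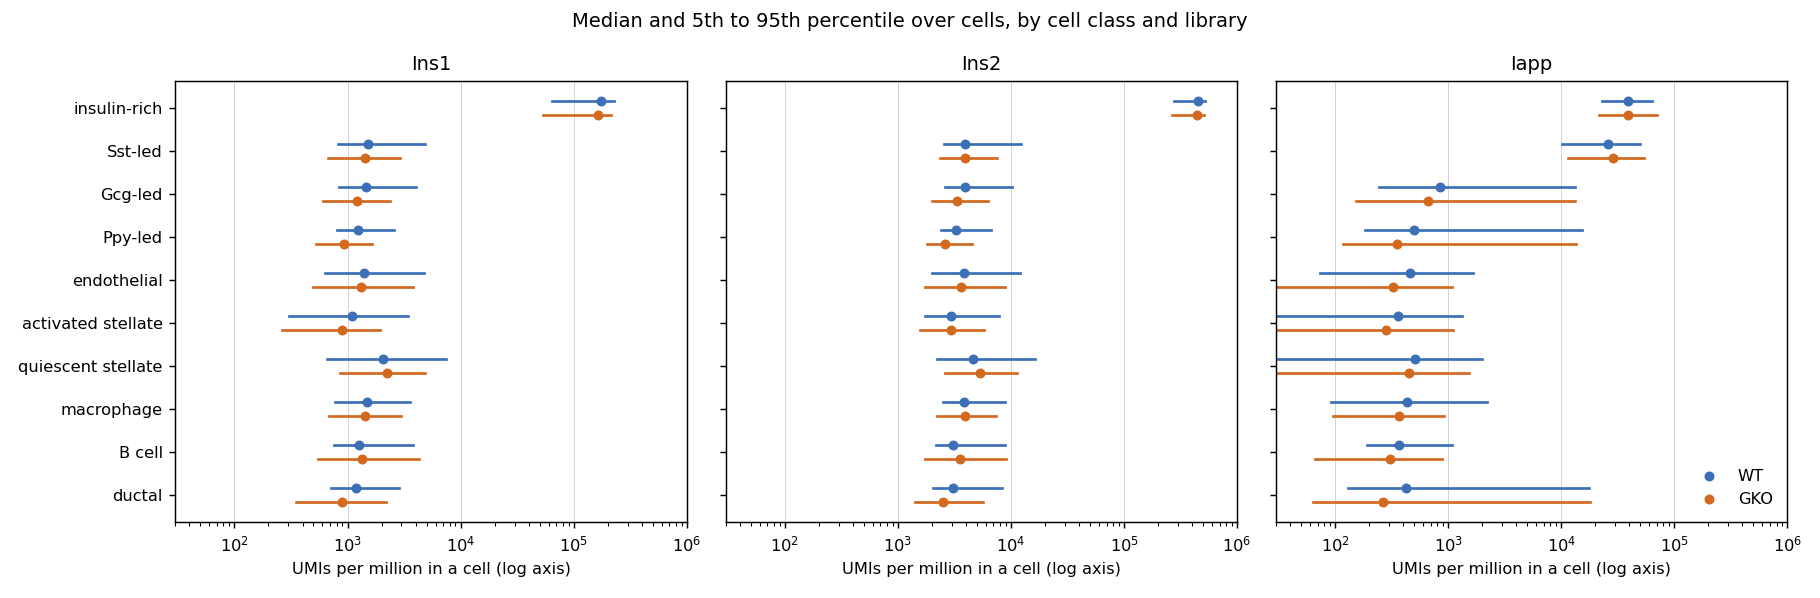
Ins1, Ins2 and Iapp in single cells of each class, in CPM of the cell (UMIs per 1000000 UMIs) on a log axis. Points are medians over cells and lines run from the 5th to the 95th percentile (ends below 30 drawn at 30), blue for WT and orange for GKO. Among the classes plotted, Ins1 and Ins2 are high in the insulin-rich cells, while median Iapp is 25730 and 28599 in Sst-led cells, below its 39132 and 38824 in insulin-rich cells and above that of the other classes plotted.

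Inside the insulin-rich cells the 3 genes stood at nearly the same level in both libraries. Levels are given as CPM, the UMIs of a gene per 1000000 UMIs of the cell or of the summed cells. Summed over cells, Ins2 stood at 431847 CPM in WT and 425226 in GKO, a log2 ratio of GKO to WT of -0.022 (95% interval -0.023 to -0.021). Ins1 stood at 169649 and 162191, a log2 ratio of -0.065 (-0.066 to -0.063). Iapp stood at 40006 and 40982, a log2 ratio of 0.035 (0.032 to 0.038). The ratios are small beside the spread over cells, for Ins1 ran from 63697 at the 5th to 228575 at the 95th percentile of WT cells and from 53569 to 214178 in GKO. None of the 3 passed a log2 ratio of 0.5 in either direction, which 4.16% of 10725 genes did, counting genes that reached 50 UMIs in both libraries. For Ins1 and Ins2 this is narrowed by the choice of cells on insulin, a median of 62.2% of UMIs in WT and 61.0% in GKO. With hormone and amylin UMIs left out of the total, Ins1 had -0.129 and Ins2 -0.086. With TMM scaling they had -0.136 and -0.093. The sign for Iapp was not stable. It was -0.029 when hormone and amylin UMIs were left out of the total, -0.036 with TMM scaling and -0.011 between the medians over cells.

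Ins2 outnumbered Ins1 in almost every insulin-rich cell. The ratio of summed UMIs was 2.546 in WT (2.544 to 2.547) and 2.622 in GKO (2.619 to 2.624), and the log2 ratio between them was 0.043. Over single cells the ratio had a 5th percentile of 2.04, a median of 2.55 and a 95th percentile of 5.45 in WT, and of 2.10, 2.63 and 6.35 in GKO. In 1589 of 2212 WT cells (71.8%) and 587 of 835 GKO cells (70.3%) it lay from 2 to 3. It lay below 1, with Ins1 ahead of Ins2, in 1 WT cell and in 0 of 835 GKO cells. Every insulin-rich cell had Ins1 UMIs, the lowest count being 8 UMIs in WT and 75 in GKO. The spread was far wider than counting gives, since the SD over cells of Ins1 as a percent of insulin was 5.72 in WT and 5.82 in GKO and the binomial SD was 0.342 and 0.346.

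The distribution had a long tail of cells poor in Ins1. A ratio of at least 4 was found in 204 WT cells (9.22%, 95% Clopper-Pearson interval 8.05 to 10.5) and 90 GKO cells (10.8%, 8.76 to 13.1), and a ratio of at least 10 in 50 and 23 cells. These intervals count cells of 1 pool each and do not compare the genotypes. The limits of 3 and 4 used from here on were chosen after the distribution was seen, and 338 WT and 141 GKO cells lie between them. The ratio was higher in cells with a lower insulin share, with a Spearman correlation of -0.495 over 2212 WT and -0.458 over 835 GKO cells, where both measures hold the same Ins2 and Ins1 counts. It was also higher in cells with fewer UMIs, with correlations of -0.454 and -0.504. The part of depth in the ratio was not tested. The lowest 25% of cells by UMIs held 146 of the 204 WT and 68 of the 90 GKO cells with a ratio of at least 4, or 26.4% and 32.5% of those cells, against 1.27% and 0.957% of the highest 25%.

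**Figure D2:**
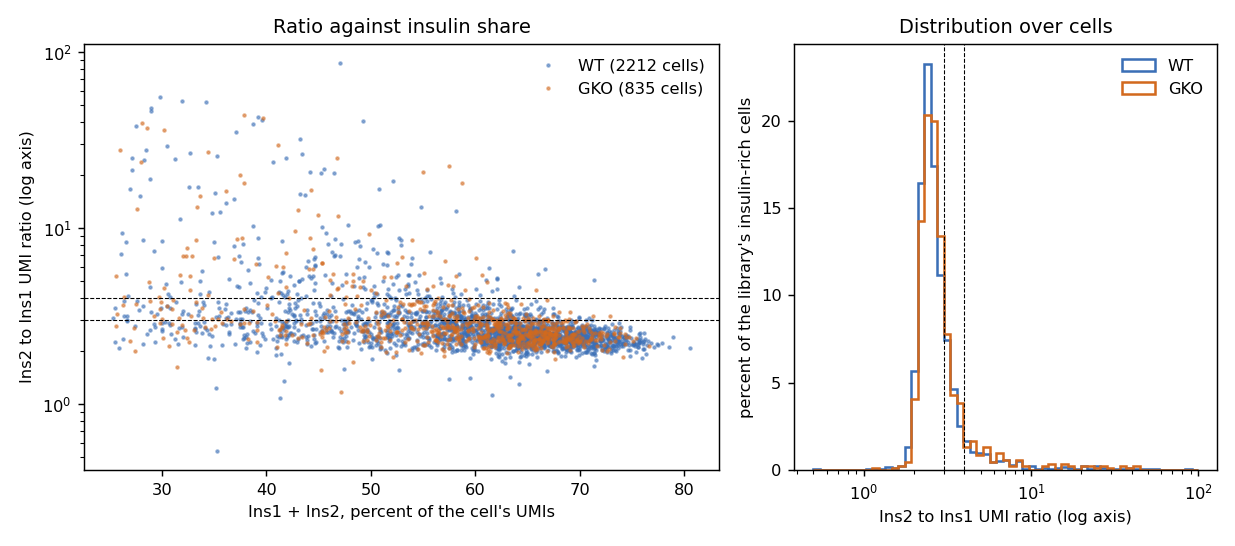
Ins2 to Ins1 UMI ratio of each insulin-rich cell against its insulin share (left) and as a distribution in percent of each library's cells (right), ratio on log axes, with dashed lines at 3 and 4. Most cells of both libraries lie near 2.5, and the cells above 4 (204 WT, 90 GKO) have mostly lower insulin shares.

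In the cells with a ratio of at least 4 both insulin genes were low relative to other transcripts, and Iapp differed less. That Ins1 differed more than Ins2 is fixed by the choice of cells on their ratio and is no finding. Per 1000 UMIs of all other genes, Ins1 stood at 131 in these WT cells and 545 in those with a ratio below 3. Ins2 stood at 787 and 1298 in the same WT cells. Iapp stood at 106 and 114. In GKO the values were 120 and 505 for Ins1, 754 and 1229 for Ins2, and 105 and 113 for Iapp. Iapp per 100 insulin UMIs was 11.6 against 6.20 in WT and 12.0 against 6.50 in GKO, with the median insulin share at 44.6% against 64.4% of UMIs and 44.4% against 63.2%. Insulin here includes Ins1, so both of these differences are fixed in part by the choice of cells. The cells also had fewer UMIs, with medians of 22722 against 40826 in WT and 21690 against 41360 in GKO, and a higher mitochondrial share, 3.55% against 2.64% and 4.14% against 2.93%. The median shares of other hormones were low on both sides, at 0.0400% and 0.0359% for Gcg and 0.125% and 0.0700% for Ppy in WT. In GKO they were 0.0539% and 0.0449% for Gcg and 0.0933% and 0.0645% for Ppy. Medians do not show single mixed cells. No other hormone reached 2% of UMIs in 151 of the 204 WT cells at 4 or above and 1412 of the 1670 below 3. In GKO this held for 72 of 90 and 507 of 604 cells.

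Genes that mark mature β cells were lower in these Ins1-poor cells of both libraries. Levels here are CPM over the UMIs other than those of the 3 members, log2 ratios are of cells at 4 or above over cells below 3 within a library, and 12.3% of 6645 genes in WT and 13.5% of 3618 genes in GKO passed 0.5 in either direction. Of the 4 β markers with enough UMIs, 3 passed downward in each library. Slc2a2 stood at 215 against 833 in WT (log2 ratio -1.96, -2.08 to -1.83) and 245 against 821 in GKO (-1.75). G6pc2 stood at 470 against 1636 in WT (-1.80) and 329 against 1139 in GKO (-1.79). Ucn3 stood at 148 against 471 in WT (-1.67) and 153 against 477 in GKO (-1.64). Nkx6-1 was lower by less, with log2 ratios of -0.49 and -0.30, and Mafa had 1 UMI in the WT and 2 UMIs in the GKO cells at 4 or above, against 177 and 124 UMIs in cells below 3.

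The 11 regulators of the insulin and amylin genes were compared between the Ins1-poor cells and those below 3. Mafa had too few UMIs at 4 or above and is left out of the counts. Pdx1, the homeodomain activator of the insulin genes, had log2 ratios of -0.53 in WT and -0.45 in GKO. Of all genes tested, 12.3% in WT and 13.5% in GKO passed in either direction. Of 10 regulators with enough UMIs, 0 passed upward and 1 downward in WT. In GKO 3 of 10 passed upward and 0 downward, namely Foxa2 (0.52), Glis3 (0.65) and Rfx6 (0.62), where WT had 0.02, 0.33 and 0.30. Neurod1, at -0.15 and -0.17, and Insm1, at -0.15 and -0.02, did not pass.

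The genes that fold, cut and store the peptides differed in both directions. The files list Ero1b, an oxidase that drives disulfide formation of proinsulin, under its older symbol Ero1lb, and it stood at 451 against 1756 in WT (log2 ratio -1.96) and 463 against 1819 in GKO (-1.97). Slc30a8, the zinc transporter of the insulin granule, had log2 ratios of -0.99 and -0.83, and the convertase Pcsk1 had -0.86 and -0.78. The convertase Pcsk2, at -0.18 and -0.23, and the amidating enzyme Pam, at 0.15 and 0.15, did not pass. The granins were higher, Chga with 0.76 and 0.80 and Chgb with 0.71 and 0.56. In all, 2 of 12 passed upward and 3 downward in WT, and 2 of 11 upward and 3 downward in GKO. The shares of all genes tested that passed in either direction were 12.3% and 13.5%. Of the receptor genes, Ramp1, a subunit of amylin and CGRP receptors, was higher with 1.35 and 0.89, and the IGF1 receptor gene Igf1r was lower with -0.55 and -0.59. In WT 2 of 5 receptor genes passed upward, with Irs2 at 0.52, and 2 downward, with Ramp2 at -0.79, and in GKO 1 of 2 each way.

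**Figure D3:**
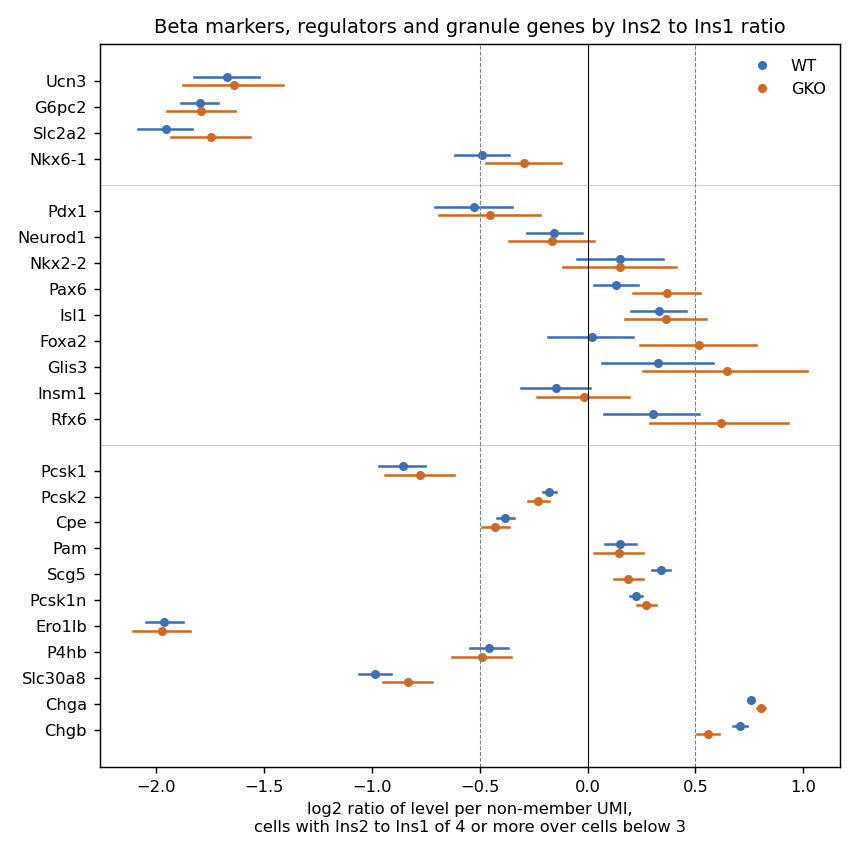
Log2 ratio of the level per non-member UMI in insulin-rich cells with Ins2 to Ins1 of 4 or more over cells below 3, within WT (blue) and GKO (orange). Rows are β markers (top), regulators (middle) and processing and granule genes (bottom), lines are 95% counting intervals, and dashed lines stand at -0.5 and 0.5. Ucn3, G6pc2, Slc2a2 and Ero1lb lie from -1.64 to -1.97 in both libraries, and Chga and Chgb lie above 0.5.

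The genes furthest apart in both libraries were chosen after their values were seen. Prss53 was lowest, with log2 ratios of -2.69 in WT and -2.39 in GKO, followed by Dapl1 (-2.12 and -2.25), Tmem215 (-2.11 and -2.20) and Sytl4, a granule docking protein (-2.01 and -2.27). Ranked by the smaller of the 2 values, Folr1, a folate receptor, was highest (1.80 and 1.81), followed by the tetraspanin Cd81 (1.67 and 1.68), Fxyd3 (1.54 and 1.94) and Tspan8 (1.57 and 1.51). The contrast was also computed where depth was closer, in cells below the median UMIs of their library. Slc2a2 then had log2 ratios of -2.04 and -1.65, G6pc2 -1.78 and -1.74 and Ero1b -1.90 and -1.70. Cd81 had 1.18 and 0.99, and Pcsk1 had -0.54 in WT and -0.39 (-0.57 to -0.20) in GKO. In these cells the median UMIs at 4 or above were still 0.714 and 0.717 of those below 3. Without cells in which another hormone reached 2% of UMIs, Slc2a2 had -2.02 and -1.75, Ero1b -2.06 and -2.11, and Cd81 2.06 in both.

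Amylin was counted against insulin in the same cells. The summed Iapp count was 6.65 per 100 insulin UMIs in WT (6.64 to 6.66) and 6.98 in GKO (6.96 to 6.99), a log2 ratio of 0.069. The medians over cells were 6.53 and 6.55, a log2 ratio of 0.004. Over single cells the 5th and 95th percentiles were 3.66 and 13.7 in WT and 3.59 and 15.6 in GKO, and above 20 lay 38 WT and 16 GKO cells. In cells with insulin from 25 to 40% of UMIs the summed ratio was 11.3 in WT and 12.7 in GKO, and in cells at 60% or more it was 5.81 and 6.00. These bins and ratios share the insulin counts. Over insulin-rich cells without another hormone at 2% of UMIs, the summed ratio was 6.388 in WT and 6.695 in GKO. Median Ppy was 1.00% and 0.558% of UMIs in the bin from 25 to 40%, and 0.0664% and 0.0615% in the bin from 60%. Median Sst in the same bins was 0.0397% and 0.107%, and 0.0238% and 0.0154%. The part of mixed cells in these ratios was not tested. In CPM, whose total includes the insulin counts, Iapp in the same 2 bins was 38435 and 39096 in WT and 41053 and 39646 in GKO. Per 1000 UMIs of all other genes it was higher with insulin share, at 61.9 from 25 to 40%, 96.6 from 40 to 60% and 136 from 60% in WT, and at 64.7, 100.5 and 132.5 in GKO. How Iapp moved with insulin share thus depended on the denominator.

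Likeness over insulin-rich cells was measured as the Spearman correlation of shares of UMIs without the members, over 2212 WT and 835 GKO cells and 2342 genes, all of which share the depth and totals of their cell. Ins1 and Ins2 had 0.927 in WT and 0.915 in GKO. Iapp had 0.527 and 0.459 with Ins1 and 0.580 and 0.513 with Ins2. The genes most like Ins1 were Cpe (0.701 and 0.670), the carboxypeptidase that trims proinsulin, then Prss53, Ero1lb, Ssr4 and Gng12. Those most like Ins2 were Cpe, Prss53, Ssr4, Ero1lb and Sec11c, the last a subunit of the signal peptidase. For Iapp they were Ssr4 (0.425 and 0.457), a subunit of the translocon-associated complex, Cpe, Sec61b, a subunit of the translocation channel, Dad1 and Selk. At the other end stood Cd81 for Ins1 (-0.581 and -0.586) and Ins2 (-0.516 in both), followed by Tspan8, with 1700086L19Rik, Gpx3 and Ocrl among the 5 lowest for Ins1 and Rbp4, 1700086L19Rik and Ocrl for Ins2. For Iapp these were Jun (-0.282 and -0.261), Itpr1, Hspa1b, Rbp4 and Dbpht2.

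Beyond the insulin-rich cells Iapp was high in the Sst-led cells as well, where insulin was not. Summed Iapp was 27883 CPM in WT and 30832 in GKO Sst-led cells. Every Sst-led cell had Iapp UMIs, with a lowest value of 3452, a median of 25730 and a highest of 85354 CPM in WT, and of 2990, 28599 and 101356 in GKO. The ranges of Sst-led and insulin-rich cells overlapped, with the medians of Sst-led cells lower. The lowest Sst-led cell lay above 95% of the non-endocrine cells, whose median was 433 in WT and 326 in GKO and whose 95th percentile was 1914 and 1171. Insulin transcripts made up a median of 0.538% of UMIs in WT and 0.526% in GKO Sst-led cells, beside 0.496% and 0.485% in non-endocrine cells. The β markers were also near 0 there, with Ucn3 at 1.56 and 1.55 and Slc2a2 at 4.91 and 3.46 CPM, and Mafa in 0.0707% and 0% of cells. Iapp to insulin was 4.19 in WT and 5.09 in GKO Sst-led cells, 0.0665 and 0.0698 in insulin-rich cells, and 0.222 and 0.202 in non-endocrine cells. Some non-endocrine cells held Sst, and the ratio varied with their class. In WT it ran from 0.0801 in quiescent stellate to 0.492 in ductal cells. In GKO it ran from 0.06845 in B cells to 0.654 in ductal cells. Sst-led cells held 11.0% of all Iapp UMIs of the WT library and 17.9% of those of the GKO library, against 0.208% and 0.351% of all Ins2 UMIs.

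**Figure D4:**
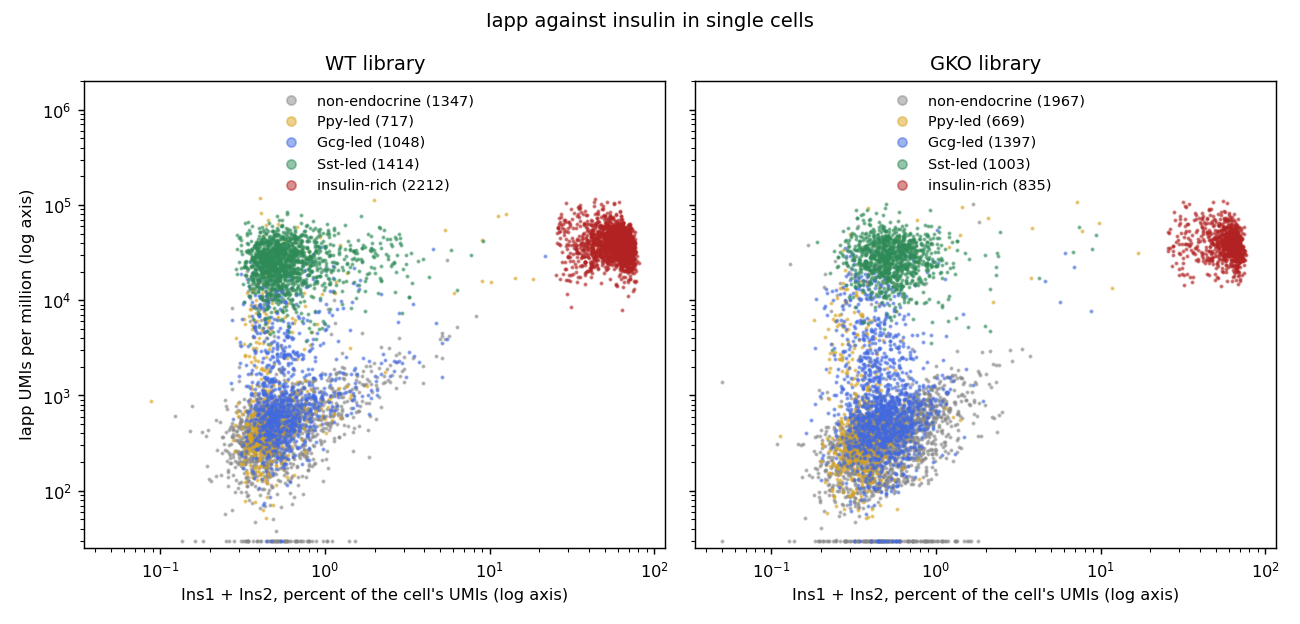
Iapp CPM against the insulin share of each cell in the WT (left) and GKO (right) library, both on log axes, with values under 30 CPM and under 0.05% drawn at those levels. Sst-led cells (green) lie with the non-endocrine cells (gray) in insulin share, near 0.5%, and overlap the insulin-rich cells (red) in Iapp with a lower median, and a part of the Gcg-led (blue) and Ppy-led (gold) cells reaches up between them.

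Within the Sst-led cells Iapp did not follow insulin. The median Iapp was 25398 in the lowest and 26878 in the highest 25% by insulin share in WT, and 29287 and 28405 in GKO, with Spearman correlations of 0.044 over 1414 and -0.051 over 1003 cells. It was somewhat higher where Sst was higher, at 23986 in the lowest and 28719 in the highest 25% by Sst share in WT and 23705 and 31860 in GKO. The Spearman correlations with Sst share, on which these cells were chosen, were 0.162 in WT and 0.214 in GKO. Summed Iapp was 15.1% of summed Sst in WT and 16.6% in GKO. The log2 ratio of GKO to WT was 0.145 (0.139 to 0.151), below the 0.5 that 4.02% of 10239 genes passed in either direction. It was 0.153 between the medians over cells and 0.222 in the 542 WT and 380 GKO cells whose insulin was at or below the median of the non-endocrine cells.

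In Gcg-led cells Iapp varied widely from cell to cell. Summed Iapp was 3497 CPM in WT and 3398 in GKO, but the medians were 842 and 666, above the 433 and 326 of the non-endocrine cells. A limit for free Iapp was set, after the values were seen, at the 95th percentile of the non-endocrine cells, 1914 in WT and 1171 in GKO, so that 5% of those cells lie above it by construction. Non-endocrine cells were kept whatever their Sst. In those above the limit, median Sst was 5.00% and 8.95% of UMIs in ductal cells, and 0.0726% and 0.0290% in endothelial cells. Of Gcg-led cells 297 of 1048 (28.3%, 25.6 to 31.2) in WT and 449 of 1397 (32.1%, 29.7 to 34.7) in GKO were above the limit. Their median insulin share was 0.540% and 0.426%, beside 0.529% and 0.470% in those at or below. Of the δ list, Edn3 was lower in the sums of the cells above, at 36.4 against 69.8 CPM in WT and 46.9 against 85.95 in GKO. Rbp4 and Ghsr were higher. The sums of the cells above held much Sst, 27029 against 328 CPM in WT and 22878 against 249 in GKO, and the δ regulator Hhex at 39.4 against 2.10 and 31.5 against 0.952. The cells with at least 0.2% Sst, a limit chosen after these values were seen, were therefore left out. Then 209 of 958 WT cells (21.8%, 19.2 to 24.6) and 345 of 1292 GKO cells (26.7%, 24.3 to 29.2) were above the limit, with median Iapp of 3874 and 2518 CPM against 628 and 465 in the rest. The limit is lower in GKO, and above a common 3000 CPM lay 13.2% of these WT and 11.3% of these GKO cells, the opposite order, so no order of the libraries is read from these shares. The log2 ratio of GKO to WT for summed Iapp was -0.042 over all Gcg-led cells and -0.321 in those with Sst under 0.2%. In the summed non-endocrine cells, some of which held Sst, it was -0.359 (1241 and 968 CPM). By class of these cells it ran from -1.009 in macrophages to 1.000 in quiescent stellate cells. The part of free RNA in the ratios of Gcg-led cells was not tested.

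Without the cells with Sst, Gcg-led cells above and below the Iapp limit had Gcg and the α regulator Irx2 at similar levels. Irx1, also on the α list, was compared only with the cells with Sst kept. There it was 53.1 against 77.5 CPM in WT (log2 ratio -0.546) and 74.2 against 76.8 in GKO (-0.049). With those cells left out, Gcg stood at 268445 against 261090 CPM in WT and 283579 against 267809 in GKO, and Irx2 at 86.6 against 97.1 and 106 against 112. The transporter gene Slc7a2 was lower, at 388 against 521 and 406 against 549, a log2 ratio short of -0.5 in both. Pyy, which encodes peptide YY, was higher, at 29580 against 15673 in WT (log2 ratio 0.92) and 25791 against 13182 in GKO (0.97). Dapl1 was highest by log2 ratio, with 1.28 and 1.42, and Sox4, with -1.24 and -0.88, and Basp1, with -1.18 and -0.99, were lowest. Ins2 was 7746 against 4322 in WT (0.84) and 4535 against 3419 in GKO (0.41) by sums, and Ins1 had log2 ratios of 0.427 and 0.062. G6pc2, a β marker, was also higher above the limit, by a log2 ratio of 1.11 in WT and 1.03 in GKO. The β markers did not all differ alike. Nkx6-1 had 0.416 and 0.641, and Slc2a2 had -0.053 and 0.857, the latter from 11 to 36 UMIs a side. Ucn3 was 3.32 against 1.58 and 2.93 against 1.82, from 10 to 21 UMIs a side, and the medians of insulin share were 0.552% against 0.529% and 0.442% against 0.471%. In the Gcg-led cells whose insulin also lay at or below the median of the non-endocrine cells, 77 of 378 WT cells (20.4%) and 210 of 723 GKO cells (29.0%) were above the limit, with median insulin shares of 0.423% against 0.440% and 0.385% against 0.391%.

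The Ppy-led cells were also split by Iapp, with fewer cells above the limit. Summed Iapp was 3001 and 2668 CPM and the medians were 501 and 355. Above the limit were 124 of 717 WT cells (17.3%) and 136 of 669 GKO cells (20.3%), and among those with Sst under 0.2%, 65 of 653 (9.95%, 7.77 to 12.5) and 70 of 602 (11.6%, 9.18 to 14.5). Above a common 3000 CPM lay 8.42% of the latter WT and 6.48% of the latter GKO cells, again the opposite order. In these cells Ppy was 292276 against 357866 in WT and 291428 against 356198 in GKO, and Chga was 5622 against 1971 (log2 ratio 1.51) and 5831 against 1772 (1.72). Summed Ins2 was higher above the limit as well, at 10479 against 3431 in WT and 7915 against 2653 in GKO. Ins1 had log2 ratios of 2.05 and 0.855. The β marker G6pc2 was 25.4 against 5.72 (37 and 79 UMIs) and 11.0 against 2.71 (18 and 32 UMIs). Nkx6-1 had log2 ratios of 0.948 and 0.884. Ucn3 had 2.45 and 0.846 and Slc2a2 1.70 and 0.183, from 3 to 35 UMIs a side. Median insulin shares were 0.438% against 0.444% and 0.377% against 0.358%. The log2 ratio of GKO to WT for summed Iapp was -0.17 over all Ppy-led cells and -0.315 in those with Sst under 0.2%. Beside these stands -0.359 in the summed non-endocrine cells, whose classes varied as given above.

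**Figure D5:**
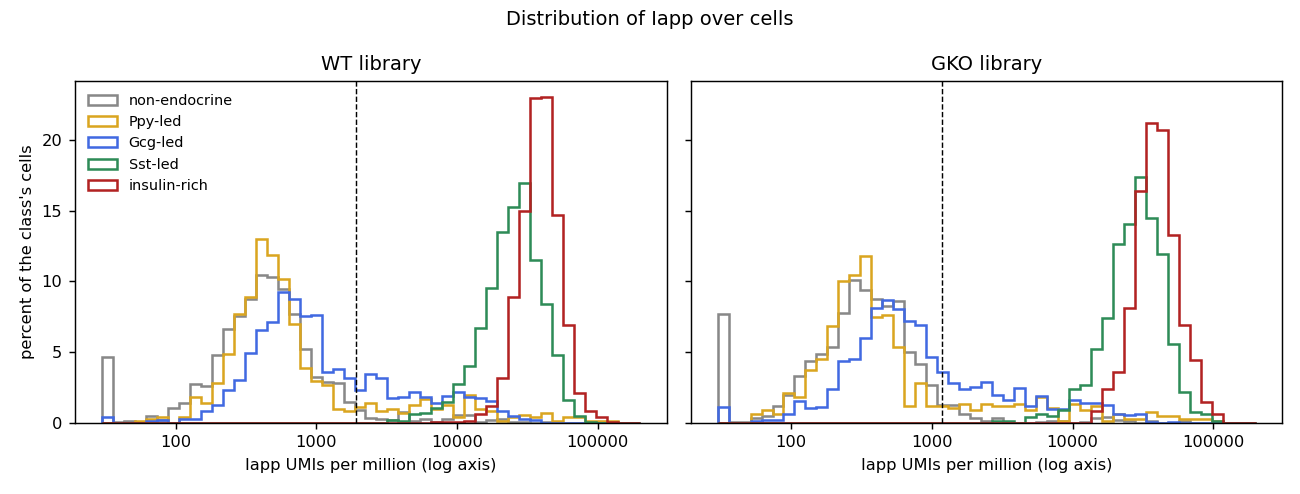
Distribution of Iapp (CPM of the cell, log axis, values under 30 drawn at 30) in percent of each class's cells, in WT (left) and GKO (right). The dashed line is the 95th percentile of the non-endocrine cells, 1914 in WT and 1171 in GKO. All 1414 WT and 1003 GKO Sst-led cells lie to its right and the Gcg-led and Ppy-led cells spread over both sides.

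Ins1 and Ins2 in the led cells lay far closer to their level in non-endocrine cells than to that in insulin-rich cells. Levels in led and non-endocrine cells differed between the libraries. Median Ins2 was 3896 CPM in WT and 3352 in GKO Gcg-led cells, 3237 and 2632 in Ppy-led, 3912 and 3898 in Sst-led and 3654 and 3599 in non-endocrine cells. Ins1 had a log2 ratio of GKO to WT of -0.51 in Gcg-led cells (1745 and 1227 CPM) and -0.77 in Ppy-led cells (1791 and 1051), and so passed 0.5 in 2 of the 3 led classes. The share of all tested genes that passed in either direction was 4.06% of 10332 in Gcg-led and 3.39% of 9915 in Ppy-led cells. Beside these stand -0.28 in Sst-led cells and -0.27 in non-endocrine cells (1533 and 1269). The medians over cells were 1445 and 1211 in Gcg-led, 1232 and 926 in Ppy-led and 1368 and 1261 in non-endocrine cells. Ins2 had -0.44, -0.45, -0.09 and -0.21 in Gcg-led, Ppy-led, Sst-led and non-endocrine cells. The insulin-rich cells from which free insulin RNA can come were 31.2% of WT and 13.2% of GKO cells, and their part in these ratios was not tested. Ins2 to Ins1 in the summed counts was 2.73 in WT and 3.41 in GKO Ppy-led cells, and 2.65 and 2.78 in non-endocrine cells. It was 2.89 and 3.03 in Gcg-led and 2.61 and 2.98 in Sst-led cells.

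The same 3 lists were then read between the genotypes. In insulin-rich cells 3 of 11 regulators passed upward and 0 downward, with a list median of 0.214 beside 0.071 over all genes tested. Of all 10725 genes tested, 4.16% passed in either direction. Pdx1 was 53.1 CPM in WT and 77.4 in GKO (log2 ratio 0.54, 0.47 to 0.61), Nkx2-2 was 30.1 and 44.6 (0.57, 0.47 to 0.66), and Mafa was 2.25 and 4.38 (0.96, 0.64 to 1.28) from 197 and 139 UMIs. With TMM scaling Pdx1 had 0.471 and Nkx2-2 0.497, short of 0.5, and Pdx1 had 0.479 when hormone and amylin UMIs were left out of the total. Neurod1, Nkx6-1, Pax6, Isl1, Foxa2, Glis3, Insm1 and Rfx6 ranged from -0.01 for Pax6 to 0.42 for Insm1. None of 12 processing and granule genes passed, with a list median of 0.087. Among them Ero1b had 0.10, Pcsk1 0.14, Pcsk2 -0.02 and Slc30a8 0.01. None of the 6 receptor genes with enough UMIs passed, with a median of -0.034, and Calcr and Ramp3 had too few. Over all genes in insulin-rich cells 291 passed upward and 155 downward, and these were 210 and 230 when hormone and amylin UMIs were left out of the total and 207 and 244 with TMM scaling.

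In the led cells the lists were read the same way. Of all genes tested, 4.02% of 10239 in Sst-led, 4.06% of 10332 in Gcg-led and 3.39% of 9915 in Ppy-led cells passed in either direction. In Sst-led cells none of 10 regulators passed, and Ramp1 passed downward (133 and 92.6 CPM, log2 ratio -0.53) among 5 receptor genes. In Gcg-led cells none of 10 regulators passed, and of 5 receptor genes Igf1r passed upward (27.2 and 38.5, 0.50) and Ramp2 downward (11.9 and 7.21, -0.72). Igf1r had 0.458 with TMM scaling. In Ppy-led cells Insm1 passed upward (32.1 and 48.1, 0.58) among 10 regulators, and Ramp2 downward (7.47 and 5.14, -0.54) among 5 receptor genes. None of the 12 processing and granule genes passed in any of the 3. All genes tested split into 229 upward and 183 downward in Sst-led cells (177 and 234 with TMM scaling), 182 and 237 in Gcg-led cells (131 and 298), and 204 and 132 in Ppy-led cells (131 and 195, and 158 and 155 without hormone and amylin UMIs).

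Over the 10 cell classes of both libraries (20 points of log2 CPM plus 1, over 6760 genes), the insulin genes and amylin had different nearest genes. Ins1 and Ins2 had a Pearson correlation of 0.999 with each other and 0.640 and 0.652 with Iapp. The genes most like Ins1 were Prss53 (0.976), Ucn3 (0.973), the cation channel gene Trpm5 (0.968), Cox6a2 (0.962) and G6pc2 (0.954), and the same 5 led for Ins2. The genes most like Iapp were Vstm2l (0.955), Klhl32 (0.946), Mlxipl, which encodes the glucose-responsive factor ChREBP (0.944), Pclo (0.937) and Scnn1b (0.930). The points of a library share its free RNA, and each class enters once per library. The insulin-rich class was itself chosen by Ins1 and Ins2, and the other classes by another lead hormone or by none. The high correlation of Ins1 with Ins2, and with genes of β cells, is therefore fixed in large part by the choice of classes and is no finding.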

How the data were processed

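Islet cells of WT and GKO mice were profiled with the Chromium 3′ v3.1 kit, 1 library per genotype and 4 pooled mice in each. The authors aligned reads to mm10 and counted UMIs with Cell Ranger 5.0.1, and reads were down-sampled across samples where required. The deposited matrices hold raw counts per gene and cell, before the authors' later removal of free RNA with CellBender, so free RNA remains in them. Cells under 500 genes or over 10% mitochondrial UMIs were dropped (kept: 7100 of 7792 WT, 6346 of 7289 GKO, with median UMIs of 15412 and 11404). No doublet caller was run, and cells with another hormone at 2% of UMIs or more were left out as an alternative.

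Counts were summed per class and library and scaled to CPM with Python 3.11.15, numpy 2.4.6 and scipy 1.17.1. Printed intervals are exact (Clopper-Pearson, conditional binomial for ratios), at 95%. For the log2 ratios of GKO to WT in Ins2 to Ins1 and in Iapp to insulin, a normal approximation was used. Its intervals are not printed and served only to sort the alternatives. With 1 library per genotype no test was possible, and genes were counted as passed at a log2 ratio of 0.5 with at least 50 UMIs in each group compared. TMM factors came from edgeR 4.0.16 (R 4.3.3) and served scaling only. The ratio and its interval were run on counts simulated with counting error only. Spread between cells or mice was not simulated, so that run says nothing of it. The text names the 3 members, the lead hormones, the genes of 3 lists past 0.5 with examples, and the 5 genes most and least like each member. Other genes are markers, or were chosen after their values were seen. The members and lists were chosen with earlier results of these data known. Alternatives were other limits for the classes, medians over cells, cells thinned to 5000 UMIs, subtraction of free RNA, and other totals. Genes of the lists that are not reported here were left out of the list counts.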

Additional observations from a re-analysis of the deposited data

Results flagged for a closer look

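Iapp had log2 ratios of GKO to WT of opposite sign in the 4 cell classes. It was higher in GKO in insulin-rich cells (0.035) and Sst-led cells (0.145), and lower in Gcg-led cells (-0.042) and Ppy-led cells (-0.17), each with a counting interval that leaves out 0. In the summed non-endocrine cells, taken as the level of free RNA, the log2 ratio for Iapp was -0.359. By class of these cells it ran from -1.009 in macrophages to 1.000 in quiescent stellate cells, so the sum gives no single level. The part of free RNA in the ratios of the classes was not tested. With 1 library per genotype the difference between the classes was not tested. The sign for Sst-led and Ppy-led cells held under every alternative run, and that for insulin-rich and Gcg-led cells did not.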

How the results depend on the processing

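Of 107 alternatives, 35 left a value where it was within its counting interval (for gene counts, within 1.5 times), 67 moved it and 5 turned its sign. With intervals this narrow, small shifts count as moves. Values are log2 ratios of GKO to WT, in the order Ins2 to Ins1, Iapp to insulin, Ins1, Ins2 and Iapp for insulin-rich cells and Sst-led, Gcg-led and Ppy-led for Iapp. With all deposited barcodes Ins2 to Ins1 was 0.045, Ins1 -0.072, Ins2 -0.028, Iapp 0.031 and Ppy-led Iapp -0.256. With insulin at 10% or more the first 4 were 0.045, 0.086, -0.085 and -0.039, at 40% or more all 5 were 0.037, 0.052, -0.048, -0.011 and 0.030, and in cells chosen by β markers 0.047, 0.073, -0.077, -0.030 and 0.030. Without cells with another hormone at 2%, Ins2 to Ins1 was 0.051, Ins1 -0.067, Ins2 -0.016 and Iapp in led cells 0.168, -0.187 and -0.605. Medians over cells gave 0.046, 0.004, -0.076, -0.013, -0.011, 0.153, -0.338 and -0.50. Cells thinned to 5000 UMIs gave 0.049, 0.066, -0.070, -0.021 and 0.032, and Gcg-led Iapp -0.130. With free RNA subtracted, Iapp to insulin was 0.072, Ins1 -0.063, Ins2 -0.020, Iapp 0.040 and Iapp in led cells 0.156, 0.015 and -0.149. Over UMIs without hormone and amylin genes Ins1 was -0.129, Ins2 -0.086, Iapp -0.029, Sst-led Iapp 0.135 and Ppy-led Iapp -0.200. TMM scaling gave -0.136, -0.093, -0.036, 0.104, -0.086 and -0.233 for Ins1, Ins2 and Iapp in the 4 classes. Iapp in led cells was 0.159, -0.186 and -0.454 with the lead hormone at 25% or more, and 0.222, 0.031 and -0.223 with insulin at or below the non-endocrine median. With Sst under 0.2%, chosen after seeing the data, Gcg-led and Ppy-led Iapp were -0.321 and -0.315. The turned signs were Iapp in insulin-rich cells by medians and both scalings and in Gcg-led cells by low insulin and free RNA, and the cause was not tested. At a minimum of 10 UMIs, which admits more genes, 1287, 1221, 1294 and 1172 genes passed 0.5 in insulin-rich, Sst-led, Gcg-led and Ppy-led cells, against 446, 412, 419 and 336. No paired analysis was possible because each genotype is 1 library, and no replicate could be left out.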
